A study of Mus musculus with 8 samples.

Results

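The lung and the small intestine are both lined by an epithelium that meets the outside world, and their RNA was compared here across barrier, immune, proliferative and stromal genes. The comparison used 4 of the 8 bulk RNA sequencing libraries of the series, 2 of lung and 2 of small intestine, taken by the tissue named in the labels. All came from C57BL/6 mice aged 6 to 10 weeks, by the study's methods males of the C57BL/6J substrain, and the labels name no treatment, transgene or mutation for either tissue. By the methods the replicates of a tissue came from separate mice, and the organs were taken from the same mice. Each organ was ground whole and its polyadenylated RNA was sequenced, so every value is a mix over all cell types of the organ. Fewer cells of a type and less RNA per cell cannot be told apart in such samples. Part of a cell type's share also depends on what was cut out with the organ.

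In the alveoli of the lung, flat type 1 cells lie against capillaries for gas exchange, and type 2 cells secrete surfactant, the film of lipid and protein that keeps the air spaces open. Club and ciliated cells line the airways above them. The small intestine has a folded absorptive epithelium of enterocytes that is replaced within days from stem cells in the crypts, with goblet cells that make mucus and Paneth cells that make antimicrobial peptides. Both surfaces are sealed by tight junctions, guarded by immune cells and carried by a stroma of matrix, vessels and smooth muscle.

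Values are FPKM, fragments per kilobase of exon scaled to the depth of the library, as deposited. For the test they were divided by a factor for each library, 1.29 and 1.34 for lung and 0.780 and 0.748 for small intestine, which is the median ratio of the library's values to the geometric mean over the 4 libraries for 18444 genes. Differences below are in log2(rescaled FPKM + 1), lung minus small intestine, with the standard error (SE) of the fit, so that 1 stands for 2-fold and a negative value for a higher level in small intestine. Levels in single libraries are the deposited FPKM. Because of the rescaling, a gene with equal deposited FPKM in both tissues lies below 0 in log2 difference. The libraries held between 9360903 and 12427332 reads on genes, and 3 reads on a gene with 1 kb of exons stand for an FPKM of 0.241 to 0.320, below which a value was not told from 0. Gene positions are those of GENCODE M21 on GRCm38, and n is 2 libraries a tissue throughout.

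Replicates of a tissue were much closer than the tissues. The median absolute log2 difference over genes was 0.129 between the lung libraries, 0.196 between the small intestine libraries and 0.698 between the tissue means. Enterocyte genes summed to 63.3 FPKM in lung replicate 1 and 35.2 in lung replicate 2, which is 0.485% and 0.269% of their summed level in small intestine, and 14 of the 15 were higher in replicate 1. Type 2 cell genes summed to 14.5 and 35.5 FPKM in small intestine, 0.0858% and 0.211% of their level in lung. Pancreatic acinar genes summed to 2523 and 1140 FPKM in small intestine and to 5.12 and 1.75 in lung, and all 8 were called higher in small intestine. Cardiac muscle genes summed to 274.8 and 283.5 FPKM in lung and to 8.59 and 9.39 in small intestine, and erythroid genes to 19195 and 24891 in lung and to 327.1 and 99.8 in small intestine. All 4 tested mesothelial genes and 1 of 3 adipocyte genes were called higher in lung, the adipocyte call being lost without either small intestine library. None of 3 skeletal muscle genes was called, but 1 was without lung replicate 1, higher in small intestine, and 1 without lung replicate 2, higher in lung. How far these neighbouring tissues and the blood act on other genes was not tested.

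Of 15307 genes tested, 2864 were called higher in lung (18.7%) and 2708 higher in small intestine (17.7%), at a Benjamini-Hochberg adjusted p under 0.05 by limma and a difference over 2-fold. Either direction held for 36.4% of genes. With only 2 libraries a tissue an exact permutation test of a single gene cannot go below a two-sided p of 0.333, so calls rest on the spread shared across genes by limma. The split of the calls depends on the scaling. Without rescaling, the median difference over all genes was 0.62, and 4991 genes were called higher in lung (32.6%) against 1631 in small intestine (10.7%), so that 75.4% of calls pointed to lung in place of 51.4%. No gene called under both scalings changed direction, but the shift between the scalings is too small to turn a call from either tissue to the other. The genes named below as higher or lower were checked under the deposited scaling, and any that lost its call there is marked.

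The widest differences in lung were led by the surfactant protein gene Sftpc (chr14:70520949-70524081), at 13439.5 and 11569 FPKM in lung and 4.24 and 4.87 in small intestine, a log2 difference of 10.42 ± 0.18. The club cell secretoglobin Scgb1a1 had the highest level of these genes, 44164 and 59746 FPKM in lung against 18.6 and 27.1. The other 8 of the 10 leading lung genes were Cbr2, Sftpb, Sftpa1, Scgb3a2, Inmt, Cyp2f2, Sftpd and Sec14l3. In small intestine the lead was taken by Paneth cell alpha-defensins, with Defa24 at 8137 and 11626 FPKM against 21.5 and 4.23 in lung, and by 2 carriers of the enterocyte, Fabp2 for fatty acids and Rbp2 for retinol. Rbp2 stood at 5505 and 3181 FPKM in small intestine and at 9.47 and 2.43 in lung. The other defensin genes among the leading 10, Defa30, Defa-rs7, Defa23, Gm14851, Gm7849, Gm7861 and AY761184, are near-identical copies whose reads can be shared, so their separate levels are uncertain. At the other end, 235 genes had a mean of at least 100 FPKM in both tissues, of which 163 were not called, 69 were higher in small intestine and 3 higher in lung. The 5 with the smallest difference were Rps16-ps2, Gm9800, Gm10075, Gm4617 and Ptma. The first 4 are annotated as processed pseudogenes, so their reads may come from their parent genes. Ptma, prothymosin alpha, stood at 803 and 831 FPKM in lung and 554 and 425 in small intestine. Its interval was -0.51 to 0.45 in log2 difference, but after quantile normalization Ptma was higher in lung by 1.34, and Rps16-ps2, Gm9800 and Gm10075 by 1.04 to 1.07.

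**Figure D1:**
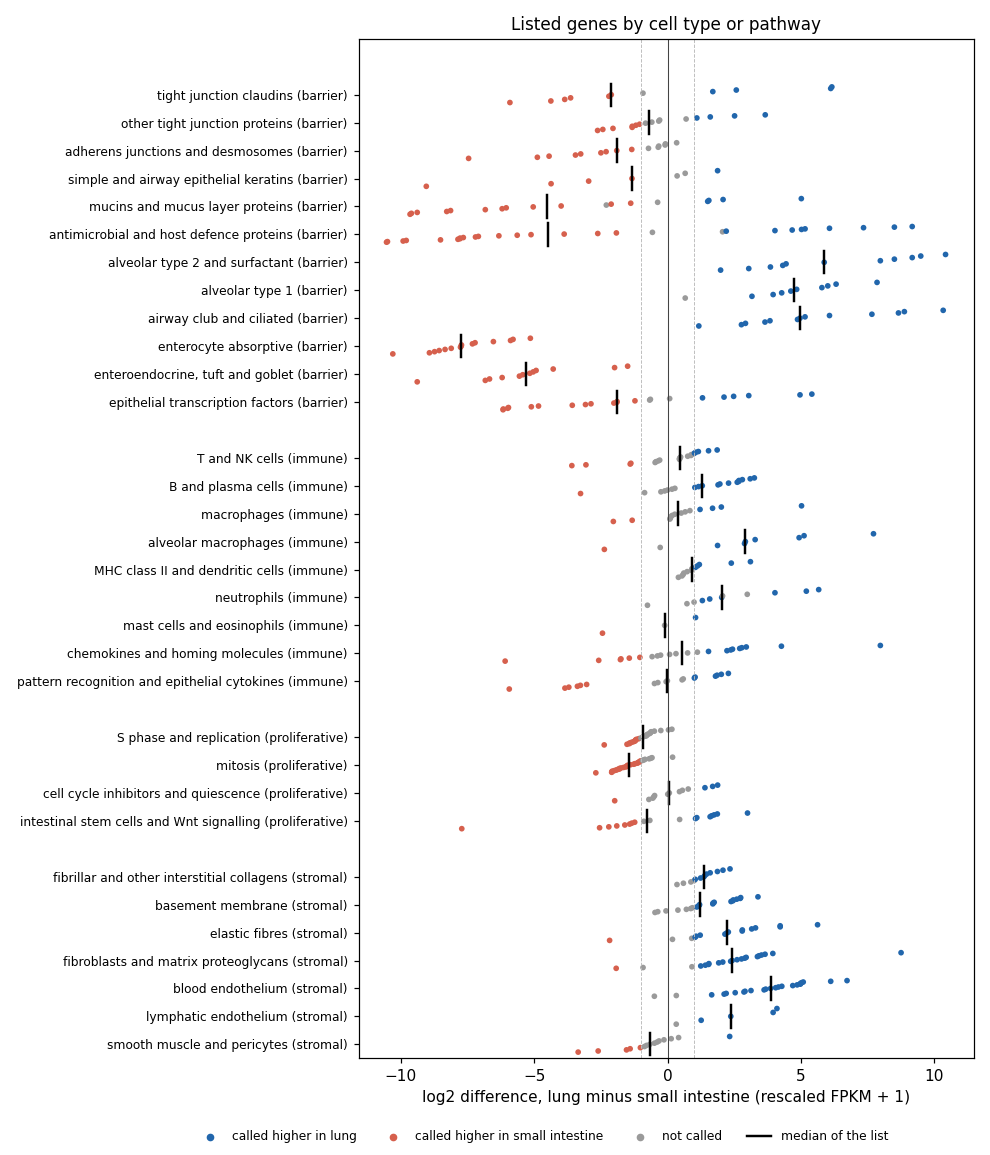
Log2 difference between lung and small intestine (horizontal axis, log2 of rescaled FPKM + 1, lung minus small intestine) for each tested gene of the barrier, immune, proliferative and stromal lists, 1 row a list, with the median as a black bar and called genes in colour. Epithelial lists lie at both ends, mitosis and S phase genes lie mostly left of 0, and matrix and endothelial genes lie mostly right of 0.

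The epithelial lists fell cleanly to the labelled tissue. All 11 type 2 cell genes, 9 of 10 type 1 cell genes and all 13 club and ciliated cell genes were called higher in lung, with medians of 5.87, 4.73 and 4.96. All 15 enterocyte genes and all 12 tested enteroendocrine, tuft and goblet cell genes were called higher in small intestine, with medians of -7.74 and -5.30, where the median of all genes was 0.01. Ager, the receptor that marks type 1 cells, stood at 744 and 928 FPKM in lung and 1.397 and 1.28 in small intestine. Fabp2 stood at 4472 and 6134 FPKM in small intestine and 11.99 and 2.502 in lung, and intestinal alkaline phosphatase Alpi at 639.7 and 474 against 1.402 and 0.0689. The exception among type 1 genes was Clic5, a chloride channel family member linked to the actin cortex, at 117 and 108 FPKM in lung and 37.8 and 44.7 in small intestine, a difference of 0.66 ± 0.17 that was too small for a call. The type 2 cell phosphate transporter Slc34a2 was uneven in small intestine, at 2.81 and 23.6 FPKM, and lost its call when either lung library was left out.

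Barrier genes were called higher in lung in 56 of 169 cases (33.1%) and in small intestine in 91 (53.8%), against 18.7% and 17.7% of all genes. The tight junctions of the organs held different claudins, the proteins that set which ions pass between cells. Of 11 tested, 4 were called higher in lung and 6 in small intestine. Cldn18 (chr9:99689461-99717267), the claudin of the alveolar epithelium, stood at 112 and 123 FPKM in lung and 0.3596 and 0.0793 in small intestine, a difference of 6.15 ± 0.18 (adjusted p = 8.36e-05). Cldn5, the claudin of endothelium, stood at 319.9 and 438 against 3.02 and 1.87 FPKM. Cldn15 and Cldn2, which form cation pores, went the other way. Cldn15 (chr5:136966616-136975858) stood at 218 and 233 FPKM in small intestine and 5.06 and 5.23 in lung, a difference of -5.91 ± 0.13 (adjusted p = 7.39e-05). Cldn2 stood at 17.9 and 18.1 FPKM in small intestine and 1.05 and 0.774 in lung. Cldn3, present in both organs, stood at 180.1 and 195 FPKM in small intestine and 75.3 and 71.6 in lung, and Cldn7 differed by -4.38 ± 0.17. Cldn4 was also called there, although its 2 small intestine libraries lay apart at 18.4 and 59.6 FPKM and the call was lost without either lung library. Of the 11 only Cldn12 was not called, with a difference of -0.92 ± 0.17.

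Most calls among the other junction genes were in small intestine. Of 16 tight junction genes beside the claudins, 7 were called higher in small intestine (43.75%) and 4 higher in lung (25%), against 17.7% and 18.7% of all genes. Those in small intestine were led by Tjp3 at -2.63 ± 0.15 and Marveld3 at -2.43 ± 0.14. Those in lung included Esam at 3.66 ± 0.19 and Jam2 at 1.598 ± 0.14, adhesion molecules that endothelium also uses. The scaffold Tjp1 (ZO-1) was called higher in lung at 17.1 and 18.6 against 3.56 and 5.55 FPKM, and occludin (Ocln) higher in small intestine at 16.7 and 22.5 against 12.03 and 12.96. Neither call held throughout. Tjp1 lost its call without either lung library or without small intestine replicate 1. Ocln, Marveld2, Cgn and Patj lost theirs on the deposited values, where the median of the list was 0.04 in place of -0.71. The balance of the calls turned there, with 5 of the 16 higher in lung and 3 in small intestine, against 32.6% and 10.7% of all genes. Without lung replicate 2, 4 of the 16 were called higher in small intestine. Of 15 adherens junction and desmosome genes, 9 were called higher in small intestine and none in lung. Cdh17, a cadherin of intestinal epithelium, stood at 162 and 198 FPKM in small intestine and 0.549 and 0.342 in lung, and the desmosomal cadherins Dsc2 and Dsg2 differed by -4.44 ± 0.25 and -3.45 ± 0.32. E-cadherin (Cdh1) was closer, at 52.5 and 71.96 against 39.3 and 42.4, and was not called on the deposited values. The catenins that anchor cadherins to actin did not pass the threshold, with Ctnnb1 at -0.09 ± 0.27 and Ctnna1 at -0.08 ± 0.21. Among 7 keratins tested, Krt20, Krt8, Krt19 and Krt18 were called higher in small intestine and Krt7 higher in lung, with Krt18 not called on the deposited values and Krt7 at 35.1 and 33.1 FPKM against 5.36 and 4.39.

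**Figure D2:**
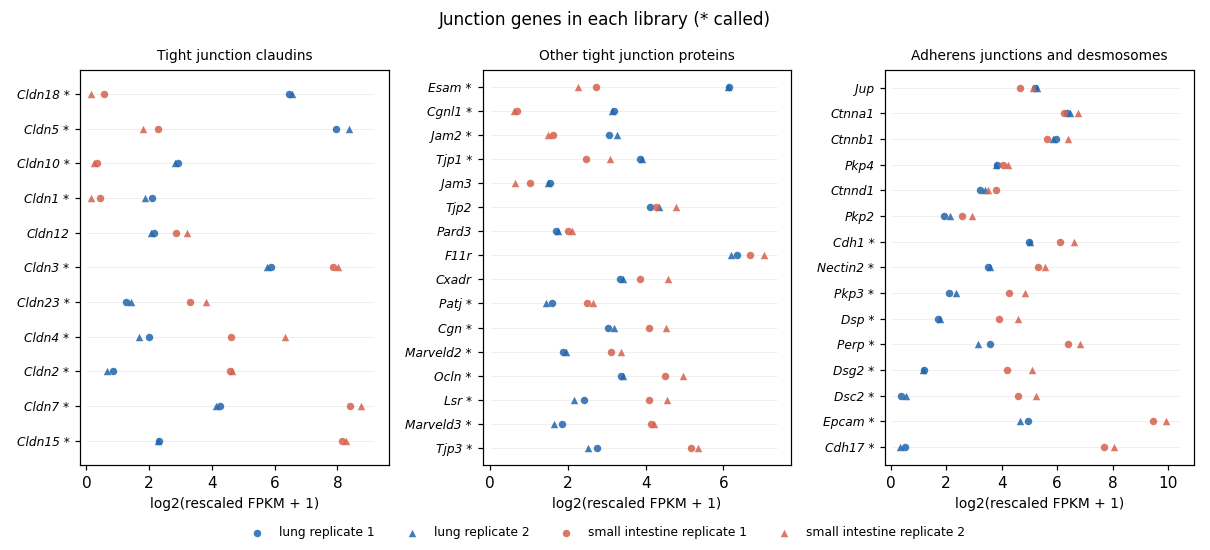
Level of each tested junction gene in the 4 libraries (horizontal axis, log2 of rescaled FPKM + 1), with lung in blue, small intestine in red and replicates 1 and 2 as circles and triangles; an asterisk marks a called gene. Cldn18 and Cldn15 have the widest gaps among claudins in opposite directions, and the points of Ctnna1 and Ctnnb1 overlap.

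Mucus genes were mostly intestinal, but not all. Of 18 tested, 12 were called higher in small intestine and 4 in lung. Muc13, a mucin of the cell surface, stood at 1116 and 1435 FPKM in small intestine and 2.899 and 0.5297 in lung, the lectin Zg16 at 1530.2 and 1645 against 3.99 and 0.832, and the gel-forming Muc2 at 58.97 and 67.6 against 0.244 and 0.113. The gel-forming mucin of the airway, Muc5b, was at 5.35 and 3.29 FPKM in lung and listed at 0 in both small intestine libraries, and the surface mucin Muc1 was at 77.6 and 71.5 in lung and 1.002 and 0.301 in small intestine. The isomerases Agr2, which helps mucins fold, and Agr3 differed in direction, with Agr2 at -6.05 ± 0.24 and Agr3 at 1.54 ± 0.13. The trefoil peptide Tff2 could not be placed, since the small intestine libraries gave 935 and 7.56 FPKM and its interval ran from -8.19 to 3.59.

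Each organ had its own set of antimicrobial proteins. Of 28 tested, 17 were called higher in small intestine and 9 in lung. The intestinal set held alpha-defensins, the C-type lectins Reg3b (1818 and 1103 against 3.14 and 0.352 FPKM) and Reg3a, the ribonuclease Ang4, the lectin Itln1 and the IgA carrier Pigr (1397 and 1073 against 70.8 and 49.6). The lung set held the collectins Sftpa1 and Sftpd, the iron carriers Lcn2 (133 and 76.4 against 1.14 and 0.707 FPKM) and Ltf, Wfdc2 (591 and 497 against 2.34 and 0.465), Slpi and the BPI-fold proteins Bpifa1 and Bpifb1. Reg3g was substantial in both, at 430.5 and 501 FPKM in small intestine and 137 and 121 in lung, a difference of -2.62 ± 0.18. The peptidoglycan receptor Pglyrp1 was not called, with an interval of -1.15 to 0.01. Defa21 and Defa22 differed between the small intestine libraries by over an order of magnitude, at 49.6 and 1408 FPKM for Defa21 and 56.1 and 1517 for Defa22, and lost their calls when a lung library was left out.

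The lysozyme genes Lyz1 and Lyz2, neighbours on chromosome 10 that encode the same kind of wall-cutting enzyme, went in opposite directions. Lyz1 (chr10:117287797-117292868), the Paneth cell form, stood at 1909.9 and 3323 FPKM in small intestine and 299 and 288 in lung, a difference of -3.88 ± 0.32 (adjusted p = 0.000673). Lyz2 (chr10:117277331-117282321), the form of macrophages and type 2 cells, stood at 5269 and 4833 FPKM in lung and 103 and 78.2 in small intestine, a difference of 5.02 ± 0.20 (adjusted p = 0.000122). The groups did not overlap for either gene, and both calls held under every alternative. The genes are close copies, so reads of the more abundant one may have been counted on the other, and the level of Lyz1 in lung is uncertain for that reason. The 130 bases before each start, from RefSeq on GRCm38.p6, are shown because a pair that moved apart is nearly alike there, with 120 of 130 bases (92.3%) the same without gaps and capitals at the 10 that differ. Over 250 bases, compared in the same way, 152 were the same (60.8%). The windows are chr10:117292869-117292998 and chr10:117282273-117282402, both on the minus strand. They follow the RefSeq starts, and for Lyz2 the GENCODE gene begins further upstream, so that its window lies partly inside the gene as positioned above.
Lyz1: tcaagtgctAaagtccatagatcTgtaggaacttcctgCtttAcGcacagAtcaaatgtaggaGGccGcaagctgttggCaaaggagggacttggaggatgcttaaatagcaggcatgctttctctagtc
Lyz2: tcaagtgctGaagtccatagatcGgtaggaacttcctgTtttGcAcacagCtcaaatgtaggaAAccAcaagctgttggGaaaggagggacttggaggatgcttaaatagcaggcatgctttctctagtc

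The epithelial transcription factors were also split between the organs. Of 22 tested, 13 were called higher in small intestine and 6 in lung. The intestinal factors Cdx1 stood at 55.6 and 62.2 FPKM in small intestine and 0.176 and 0.04598 in lung, and its partner Cdx2 at 23.9 and 27.5 in small intestine and at 0 in both lung libraries. Hnf4a, Hnf4g and the retinoid-responsive Isx differed by -5.99 ± 0.23, -6.16 ± 0.29 and -5.97 ± 0.27. Nkx2-1, the factor that defines lung epithelium, stood at 52.9 and 58.6 FPKM in lung and at 0.0376 and 0 in small intestine, and Foxj1, the switch for motile cilia, at 38.2 and 43.3 against 0.0407 and 0. The GATA factors were not alike, with Gata4 at -4.84 ± 0.12 and Gata6, which lung also holds at 10.2 and 11.1 FPKM, at -1.895 ± 0.14. Foxa1 and Foxa2 were higher in lung, by 1.31 ± 0.14 and 2.11 ± 0.20. Klf4 and Grhl2 were among the 3 not called, and Grhl2 had an interval of -0.26 to 0.42.

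Promoters of called genes were searched for short sequences that these factors are known to prefer, in the 250 bases before the start given by RefSeq for 10424 of the tested genes, on both strands. The HNF4 sequence CAAAGTCCA was in 0.47% of all these promoters, in 0.899% of those of genes called higher in small intestine and in 0.2% of those called higher in lung. Among the 309 promoters of called genes at least 16-fold higher in small intestine it was in 11 (3.56%), and in none of the 94 of called genes at least 16-fold higher in lung. The CDX sequence TTTATTG was in 2.55% of all promoters, in 7.44% of the 309 and in 1.06% of the 94, but over all called genes in 3.12% for small intestine and 2.8% for lung. The GATA sequence AGATAA was in 6.37% of all, in 15.2% of the 309 and in 10.6% of the 94, and over all called genes in 9.2% and 6.69%. The forkhead sequence TGTTTGC, at 3.36% of all promoters, was in 7.44% of the 309 and 7.45% of the 94 and over all called genes in 4.44% and 3.95%, and the NKX2 core CTCAAG, at 12.7% of all, in 13.3% of the 309 and 12.8% of the 94 and over all called genes in 13% and 13.2%. Another sequence that was searched, not reported here by name, was in 0.317% of all promoters, in 2.27% of the 309 and 2.13% of the 94, and over all called genes in 1.22% and 0.3%. These shares are descriptions without a test, and base composition was not matched. The promoters of Fabp2, Alpi and Sftpb are shown as examples that hold such letters, from RefSeq on GRCm38.p6, with every match to the 5 sequences named above, on either strand, in capitals. Fabp2 (chr3:122894822-122895071, plus strand) holds the CDX sequence 65 to 59 bases and the forkhead sequence 42 to 36 bases before the start, and the reverse complement of the NKX2 core 107 to 102 bases before it. Alpi (chr1:87101607-87101856, minus strand) holds the HNF4 sequence 19 to 11 bases before it and the reverse complement of the NKX2 core 114 to 109 bases before it. Sftpb (chr6:72304360-72304609, plus strand) holds the NKX2 core 100 to 95 and 15 to 10 bases and the reverse complement of the forkhead sequence 88 to 82 bases before it, so that the NKX2 core is in all 3.
Fabp2: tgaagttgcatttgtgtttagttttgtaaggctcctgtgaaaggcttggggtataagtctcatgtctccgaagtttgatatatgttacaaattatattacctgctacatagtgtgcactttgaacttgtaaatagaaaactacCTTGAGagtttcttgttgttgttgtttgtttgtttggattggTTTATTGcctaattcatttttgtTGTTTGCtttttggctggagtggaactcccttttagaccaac
Alpi: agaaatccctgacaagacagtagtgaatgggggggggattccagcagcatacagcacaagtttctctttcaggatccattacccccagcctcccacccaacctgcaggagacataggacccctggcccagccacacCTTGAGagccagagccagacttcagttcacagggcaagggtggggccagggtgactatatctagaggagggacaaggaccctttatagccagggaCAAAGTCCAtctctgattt
Sftpb: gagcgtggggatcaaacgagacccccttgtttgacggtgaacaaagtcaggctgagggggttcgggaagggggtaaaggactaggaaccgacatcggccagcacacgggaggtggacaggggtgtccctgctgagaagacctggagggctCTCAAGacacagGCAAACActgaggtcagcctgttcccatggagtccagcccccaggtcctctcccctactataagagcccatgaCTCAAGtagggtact

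Immune genes leaned to lung, with 54 of 128 tested called higher there (42.2%) and 21 higher in small intestine (16.4%), against 18.7% and 17.7% of all genes. The erythroid sum given above is a measure of blood in the samples, and circulating leukocytes come with blood. The part of blood in these differences was not tested. The B and plasma cell genes were a single list, whose parts were not fixed beforehand. The genes of resting B cells named here were higher in lung. Ms4a1 (CD20), a membrane protein of B cells, stood at 12.7 and 17.5 FPKM in lung and 0.501 and 0.971 in small intestine, and Ighd, the constant region of IgD on naive cells, at 53.1 and 84.6 against 3.49 and 3.35. The groups did not overlap for these genes. Genes of antibody-secreting cells were mostly not called. Mzb1 and Sdc1 were called higher in lung, by 1.298 ± 0.28 and 1.02 ± 0.14. Both calls were lost without small intestine replicate 2, and that of Mzb1, which shares 57.2% of its exon bases with other genes, also without either lung library. Igha, the constant region of IgA, stood at 2738 and 1504 FPKM in lung and 3454 and 1336 in small intestine, a difference of -0.86 ± 0.55 with an interval of -2.31 to 0.59, and Igkc, Jchain, Derl3, Prdm1 and Tnfrsf17 were not called either. The wide intervals come with replicates that disagree, since Igha, Igkc and Jchain were all higher in replicate 1 of each tissue. In all, 12 of 19 B and plasma cell genes were called higher in lung. Iglc1 was called higher in small intestine at 2348 and 311 FPKM, and its call was lost under 5 alternatives, the deposited scaling and leaving out either lung library among them.

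Gzmb and Gzma, granule proteases of cytotoxic lymphocytes, were higher in small intestine, Gzmb at 28.05 and 23.4 FPKM against 1.93 and 3.08 in lung and Gzma at 96.4 and 83.5 against 14.5 and 20.7. Itgae (CD103), the integrin that holds lymphocytes in the epithelium, and Cd8a were also called there, at -1.404 ± 0.13 and -1.38 ± 0.17, but not on the deposited values. Cd8b1, the other CD8 chain, was higher in lung at 7.94 and 10.1 against 1.01 and 0.774 FPKM, as was Cd5 at 5.44 and 5.87 against 0.413 and 0.896. The CD3 chains Cd3d, Cd3e and Cd3g were not called, with differences of 0.46 ± 0.19, -0.44 ± 0.14 and -0.47 ± 0.13. Of 21 T and NK cell genes, 5 were called higher in lung (23.8%) and 4 in small intestine (19.05%), close to the 18.7% and 17.7% of all genes. Under the deposited scaling the counts were 13 and 2, against 32.6% and 10.7% of all genes. Without lung replicate 2, 3 were called higher in lung.

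Of the myeloid genes, those of alveolar macrophages had the widest gap. They were led by Chil3, a chitinase-like protein, at 345 and 293 FPKM in lung and 0.131 and 0.108 in small intestine, and by the ribonucleases Ear2 and Ear1, and 7 of 9 were called higher in lung. Marco, a scavenger receptor of these cells, was uneven in lung at 6.597 and 1.59 FPKM. The lipid droplet gene Cidec went the other way, at 32.2 and 50.01 in small intestine and 14.5 and 10.4 in lung. The complement genes of tissue macrophages, C1qa, C1qb and C1qc, were not called, at 0.08 ± 0.28, 0.27 ± 0.23 and 0.103 ± 0.30. Of 14 general macrophage genes 4 were called higher in lung (28.6%) and 2 in small intestine (14.3%), against 18.7% and 17.7% of all genes. On the deposited values 8 and 1 were called, against 32.6% and 10.7% of all genes, and the small intestine count was also 1 without either lung library or small intestine replicate 2. Lgals3, the galectin that enterocytes also make, was higher in small intestine at -2.04 ± 0.22. Of 12 MHC class II and dendritic cell genes 5 were called higher in lung (41.7%), against 18.7% of all genes, with a median of 0.90. On the deposited values the count was 11, against 32.6% of all genes, and leaving out lung replicate 1 lowered it. Among the class II genes H2-Aa was called at 1.12 ± 0.14 and their activator Ciita at 1.04 ± 0.14, whereas H2-Ab1, H2-Eb1, H2-DMa, H2-DMb1 and Cd74 were not, with H2-Ab1 at 0.403 ± 0.17. The call of Ciita was lost without lung replicate 1 or small intestine replicate 1. Ccr7, the receptor that leads dendritic cells and naive lymphocytes to lymph nodes, differed by 3.103 ± 0.20, and the dendritic cell lectins Clec9a and Cd209a by 2.39 ± 0.12 and 1.19 ± 0.30, the last a call lost without either lung library or small intestine replicate 2. Of 11 neutrophil genes 6 were called higher in lung, but the lung replicates disagreed. S100a9 stood at 36.3 and 214 FPKM in lung and 0.205 and 0.338 in small intestine. The granule gene Ngp stood at 2.01 and 31.4 in lung and at 0 in both small intestine libraries, and was not called. Without lung replicate 1 the count was 9 of 11. Of 11 mast cell and eosinophil genes 3 were tested, and Mcpt1, a protease of mucosal mast cells, was called higher in small intestine at -2.44 ± 0.17, and Cpa3, a mast cell carboxypeptidase, higher in lung at 1.05 ± 0.13, a call lost without lung replicate 2, after quantile normalization and with all 8 libraries in the fit.

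The signals that draw leukocytes also differed by organ. Ccl25, the chemokine that recruits lymphocytes to the small intestine, stood at 81.3 and 85.00 FPKM there and 0.839 and 0.767 in lung, and Ccl28 and Madcam1, the ligands of other gut homing receptors, differed by -2.58 ± 0.31 and -1.77 ± 0.23. In lung the lead was with Cxcl15, named lungkine, at 585 and 520.1 against 0.452 and 0.581 FPKM, followed by the adhesion molecule Icam1 at 44.4 and 50.96 against 0.858 and 0.587 and the B cell attractant Cxcl13 at 49.96 and 33.4 against 3.25 and 1.77. In total 9 of 22 were called higher in lung (40.9%) and 6 in small intestine (27.3%), against 18.7% and 17.7% of all genes. On the deposited values the counts were 11 and 3, against 32.6% and 10.7% of all genes. Ccl5, Cx3cl1 and Cxcl9 were among the 6 and lost their calls on the deposited values.

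Genes of microbe sensing and of epithelial cytokines, taken as 1 list, were called in both directions. Of 18 tested, 6 were called higher in small intestine (33.3%) and 6 in lung (33.3%), against 17.7% and 18.7% of all genes. All 6 in small intestine belong to the inflammasome, which cuts interleukin 18 into its active form, or to its product. Nlrp6 stood at 48.9 and 58.99 FPKM in small intestine and 0.363 and 0.0792 in lung, Casp1 at 94.98 and 87.5 against 9.03 and 10.3, and Il18 itself at 101 and 77.00 against 17.98 and 16.8. Naip5, Naip1 and Nlrc4, which detect flagellin and secretion needles, differed by -3.703 ± 0.18, -3.38 ± 0.22 and -3.27 ± 0.24. These 6 held their calls under every alternative. In lung the higher genes were receptors of the cell surface with their coreceptor, Tlr2 at 5.27 and 6.25 against 0.603 and 0.264 FPKM, Tlr4 at 2.23 and 2.49 against 0.365 and 0.207 and Cd14 at 22.2 and 19.2 against 2.45 and 2.36, together with the cytosolic Nod1 and the epithelial cytokines Tslp and Il33. Tlr4 and Il33 lay at the threshold and lost their calls under 4 and 6 alternatives. The shared adaptor Myd88 had an interval of -0.32 to 0.30 after rescaling and a difference of 0.71 on the deposited values. Nlrp3, Nod2, Tlr5, Tlr6, Tlr8, Tlr9 and Il25 were too low to be tested.

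**Figure D3:**
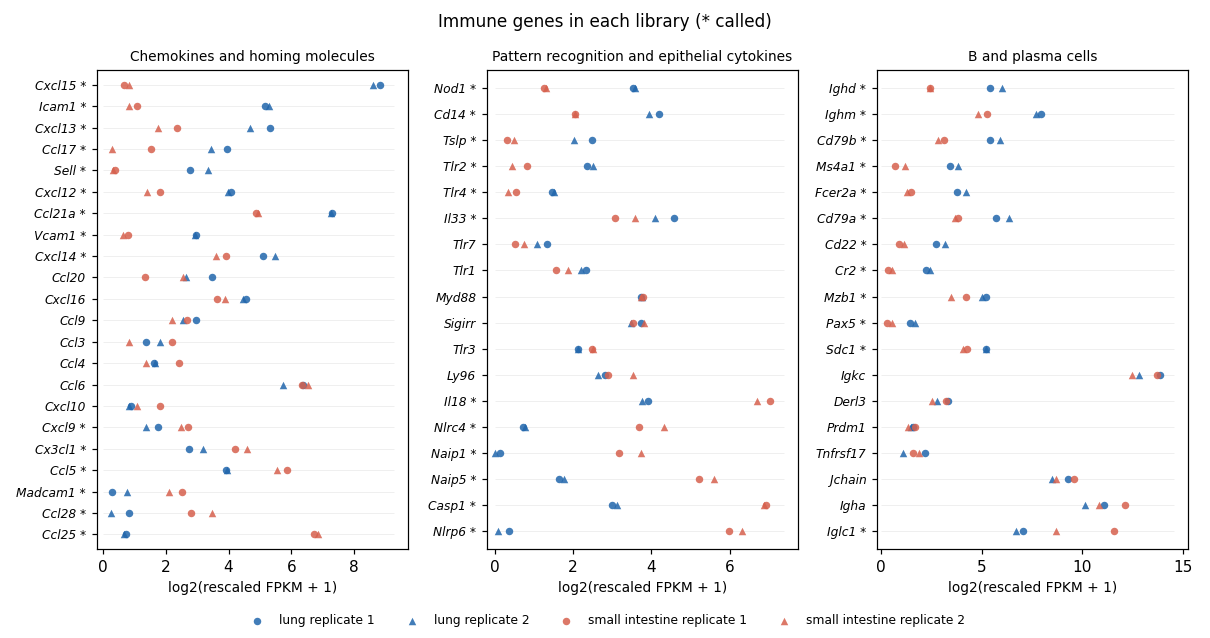
Level of the reported chemokine and homing genes, pattern recognition and epithelial cytokine genes, and B and plasma cell genes in the 4 libraries (horizontal axis, log2 of rescaled FPKM + 1), with lung in blue, small intestine in red and replicates 1 and 2 as circles and triangles; an asterisk marks a called gene. Nlrp6 to Il18 lie with both small intestine points to the right, Nod1 and Cd14 with both lung points to the right, and Igha, Igkc and Jchain have points of both tissues mixed.

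Of 87 genes of division, quiescence and stem cells, 43 were called higher in small intestine (49.4%) and 10 in lung (11.5%), against 17.7% and 18.7% of all genes. Mitosis genes were mostly called higher in small intestine, by smaller amounts than enterocyte genes, and S phase genes were called there less often. Of 30 mitosis genes tested 23 were called higher in small intestine and none in lung, with a median of -1.45. Ube2c, which directs cyclins to destruction at the end of mitosis, led at 19.2 and 18.1 FPKM against 3.58 and 4.15 in lung, a difference of -2.69 ± 0.12 (adjusted p = 0.000158). Cyclin Ccnb1 stood at 6.49 and 8.15 against 1.94 and 1.98, the kinase Cdk1 at 6.78 and 6.41 against 2.39 and 2.202 and the proliferation marker Mki67 at 6.56 and 6.53 against 3.02 and 3.25, the last not called on the deposited values. Among 26 S phase and replication genes, 11 were called higher in small intestine and none in lung, with a median of -0.94. Mcm10, which helps start replication forks, stood at 2.57 and 1.79 FPKM against 0.3195 and 0.554, a difference of -1.52 ± 0.17, and was also called on the deposited values. The genes of the replicative helicase, Mcm2 to Mcm7, were not called and lay between -0.999 and 0.03.

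The number of these calls depends on the scaling. On the deposited values 12 of the 30 mitosis genes and 2 of the 26 S phase genes were called higher in small intestine, with medians of -0.89 and -0.32. Of all genes 10.7% were called so under that scaling, a share that the S phase genes did not exceed. The order of the libraries was compared under both scalings. Both small intestine libraries lay above both lung libraries in 29 of 30 mitosis genes after rescaling, against 40% of all genes, and in 28 of 30 on the deposited values, against 20.1% of all genes, where 66.6% of all genes had both lung libraries above. For S phase genes these counts were 24 and 17 of 26. Ube2c, Birc5, Ccnb2, Ccnb1 and Plk1, the 5 mitosis genes with the widest difference, kept their calls under every alternative. Both tissues had measurable levels of most of these genes, and Pcna stood at 26.8 and 42.8 FPKM in lung and 45.8 and 39.3 in small intestine.

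Of 13 genes that hold cells out of the cycle, 3 were called higher in lung (23.1%) and 1 in small intestine (7.69%), against 18.7% and 17.7% of all genes. On the deposited values the counts were 6 and 1, against 32.6% and 10.7% of all genes. Those higher in lung after rescaling were Cdkn1c, Gas6 and Gas1. Cdkn2b was higher in small intestine at 35.1 and 41.3 FPKM against 12.8 and 18.9. Cdkn1c (p57), an inhibitor of quiescent cells, stood at 13.5 and 14.7 FPKM in lung and 1.62 and 1.73 in small intestine. Cdkn1a (p21) was high in both, at 149 and 103 FPKM in lung and 79.1 and 129 in small intestine, and was not called. Cdkn1b had an interval of -0.44 to 0.45.

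**Figure D4:**
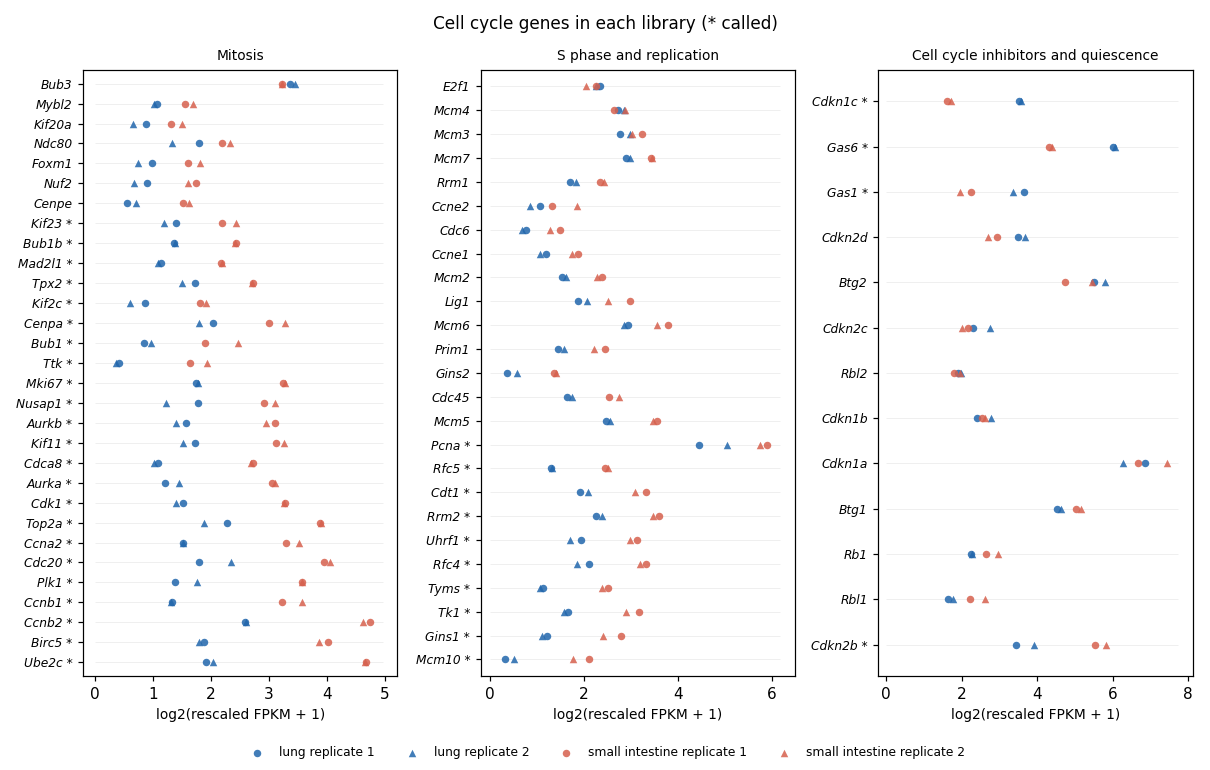
Level of the reported mitosis, S phase and cell cycle inhibitor genes in the 4 libraries (horizontal axis, log2 of rescaled FPKM + 1), with lung in blue, small intestine in red and replicates 1 and 2 as circles and triangles; an asterisk marks a called gene. In 29 of 30 mitosis genes both red points lie right of both blue points, while the inhibitors lie on both sides.

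Stem cell and Wnt pathway genes were divided, with 8 of 18 called higher in small intestine (44.4%) and 7 in lung (38.9%), against 17.7% and 18.7% of all genes. Olfm4, which marks crypt base cells, stood at 182 and 221 FPKM in small intestine and 0.484 and 0.1902 in lung. Lgr5, the receptor that defines those stem cells, was too low for the test, at 0.749 and 0.723 FPKM in small intestine and 0.01996 and 0.0314 in lung, while its relative Lgr4 differed by -2.55 ± 0.18. Ascl2, Ephb2, Smoc2 and Sox9, which crypt cells express, were called higher in small intestine, whereas Ephb3 and Cd44, also known from crypts, were called higher in lung, at 1.09 ± 0.14 and 1.59 ± 0.13, the call of Ephb3 being lost without small intestine replicate 1. The pathway's own parts were called in both directions. Nkd1, a feedback inhibitor, stood at 36.2 and 34.96 FPKM in lung and 2.23 and 1.67 in small intestine, and Wnt2, Tcf7 and the Wnt enhancer Rspo1 were also higher in lung, at 1.86 ± 0.15, 1.74 ± 0.13 and 1.65 ± 0.15. The feedback inhibitor Rnf43 and the target Myc were called higher in small intestine, at -1.34 ± 0.15 and -1.23 ± 0.14, but not on the deposited values. The target Axin2 was not called, at -0.67 ± 0.21.

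Stromal genes leaned to lung, with 82 of 121 tested called higher there (67.8%) and 8 in small intestine (6.61%), against 18.7% and 17.7% of all genes. Of 23 genes of blood endothelium 21 were called higher in lung, with a median of 3.86. Tmem100, a membrane protein downstream of the ALK1 receptor, stood at 258 and 256 FPKM in lung and 0.484 and 0.8496 in small intestine, Cdh5 (VE-cadherin) at 126 and 149 against 2.26 and 1.81, and Pecam1 (CD31) at 99.1 and 109 against 3.55 and 2.396. The tissues did not overlap for these genes. The exceptions were Ackr1, the chemokine receptor of venules, at -0.498 ± 0.14, and Car4, the carbonic anhydrase of capillaries, which the small intestine held at 61.2 and 65.4 FPKM against 135 and 138 in lung. The lymphatic genes Lyve1, Ccl21a and Flt4 were higher in lung by 4.096 ± 0.18, 2.37 ± 0.13 and 1.26 ± 0.16.

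Elastic fibre genes, which let the lung recoil, were higher in lung. Of 16 genes 13 were called higher in lung, with a median of 2.24. Elastin (Eln) stood at 54.5 and 50.3 FPKM in lung and 1.07 and 0.774 in small intestine, the fibre protein Mfap4 at 278 and 325 against 3.28 and 2.39, and the crosslinking enzyme Loxl1 at 25.3 and 27.7 against 1.13 and 0.6696. Fbln1, another protein bound to these fibres, went against the list at 39.1 and 41.1 FPKM in small intestine and 14.4 and 14.1 in lung, a difference of -2.18 ± 0.13 (adjusted p = 0.000278), and kept that call under every alternative. Its relatives Fbln5 and Fbln2 were higher in lung, by 2.27 ± 0.15 and 1.03 ± 0.15, the second a call lost without lung replicate 1. Basement membrane genes were called higher in lung in 14 of 21 cases and in small intestine in none. The collagen IV chains Col4a3, Col4a4 and Col4a5, which form the network of filtering and gas-exchange membranes, were low in small intestine. Col4a3 stood at 8.83 and 8.53 FPKM in lung and 0.107 and 0.106 in small intestine, Col4a4 at 12.5 and 14.3 against 0.0503 and 0.0583 and Col4a5 at 10.4 and 10.9 against 0.318 and 0.263. The broadly used chains Col4a1 and Col4a2 differed less, by 2.38 ± 0.15 and 2.45 ± 0.15. Nid2, Col15a1 and Col18a1 were not called, the last with an interval of -0.44 to 0.32. Of 13 interstitial collagens 9 were called higher in lung, with Col1a1 at 34.1 and 28.96 against 4.85 and 4.104 FPKM and Col3a1 at 50.4 and 40.03 against 10.2 and 8.79.

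Fibroblast genes were called higher in lung in 18 of 21 cases. Inmt, a methyltransferase of lung fibroblasts, led at 1301 and 1449.6 FPKM against 1.202 and 0.993. The lung mesenchyme factors Tbx4 and Tbx5 stood at 16.98 and 20.99 FPKM and at 7.93 and 8.95 FPKM in lung, and both were listed at 0 in both small intestine libraries. Foxf1, a factor of mesenchyme in both organs, was at 79.3 and 105 FPKM in lung and 3.14 and 3.95 in small intestine, and the growth factor receptors Pdgfra and Pdgfrb differed by 2.42 ± 0.15 and 2.07 ± 0.17. Grem1, an antagonist of BMP signals made beneath the crypts, was the only one of the 21 called higher in small intestine, at 3.61 and 3.53 FPKM against 0.667 and 0.621, although 2 were called there without small intestine replicate 2.

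Of 15 smooth muscle and pericyte genes, 5 were called higher in small intestine (33.3%) and 1 in lung (6.67%), against 17.7% and 18.7% of all genes, with a median of -0.67. On the deposited values 2 and 1 were called, against 10.7% and 32.6% of all genes. Leaving out lung replicate 2 also lowered the small intestine count. Both small intestine libraries lay above both lung libraries in 11 of the 15 after rescaling and in 5 on the deposited values, where both lung libraries lay above in 7. The enteric actin Actg2 stood at 65.2 and 55.6 FPKM in small intestine and 16.1 and 15.8 in lung, and the mural cell regulator Rgs5 at 28.1 and 23.4 against 4.17 and 2.28. Both held under the deposited scaling. The myosin Myh11, Tpm2 and Mylk lost their calls there, and the median of the list was then 0.10. Acta2 and Des, which both organs use in muscle, were not called, at -0.49 ± 0.16 and -0.67 ± 0.14. Notch3, a receptor of arterial mural cells, was higher in lung at 6.37 and 10.4 against 0.425 and 0.253 FPKM. Of the enteric nervous system only the neuropeptide Vip was called higher in small intestine, at 5.53 and 5.97 FPKM against 0.0903 and 0.0237, with 2 calls there without small intestine replicate 1, and 7 of the 14 listed genes were too low for the test. Kit and Ano1, which mark the pacemaker cells of the gut but also mast cells and airway epithelium, were higher in lung, by 2.28 ± 0.15 and 1.79 ± 0.14.

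**Figure D5:**
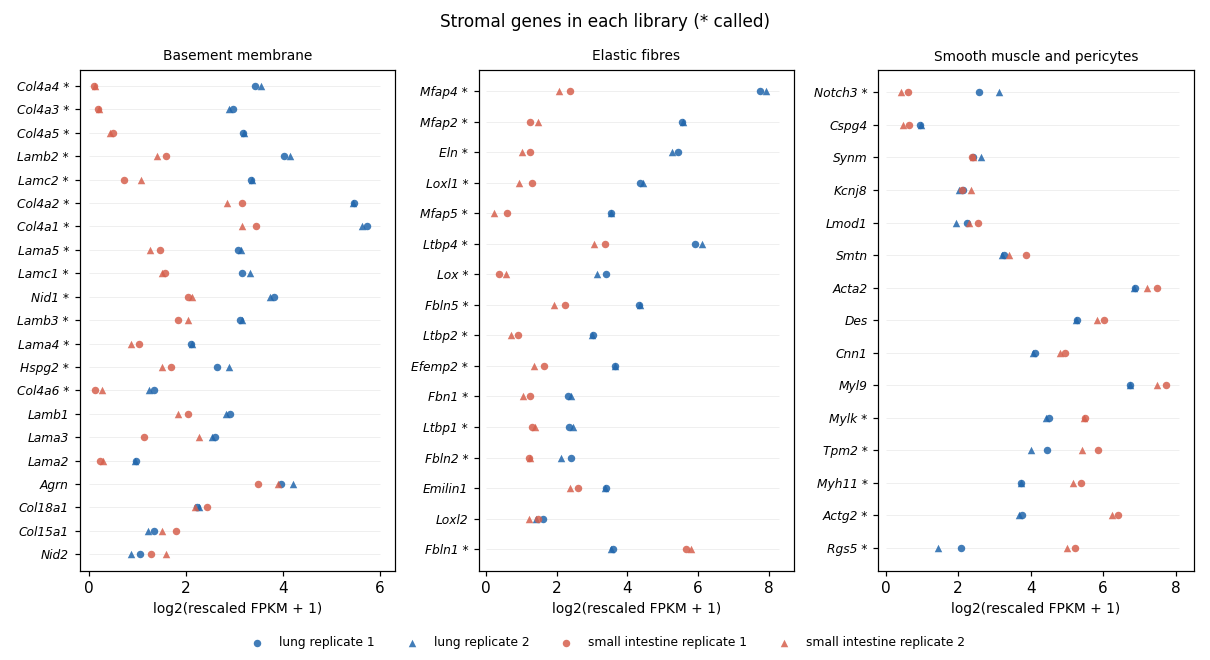
Level of basement membrane, elastic fibre and smooth muscle genes in the 4 libraries (horizontal axis, log2 of rescaled FPKM + 1), with lung in blue, small intestine in red and replicates 1 and 2 as circles and triangles; an asterisk marks a called gene. Col4a4 and Mfap4 lead in lung, and Fbln1, Actg2 and Rgs5 lie with both small intestine points to the right.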

How the data were processed

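Per the labels and the study's methods, whole organs were ground in liquid nitrogen, polyadenylated RNA was taken from Trizol extracts, and reads were aligned with STAR 2.5.3a to GRCm38 with Ensembl release 75. The authors deposited FPKM computed by DESeq2 for 52195 genes, with no counts. Values fit whole reads (95.1% to 96.1% of low values in each library lie within 0.02 of a whole read), which gave the depth. All 4 libraries were grouped by the tissue in their labels.

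From the deposited FPKM, values were rescaled by median-of-ratios factors, genes with an FPKM of at least 1 in at least 2 of the 4 libraries were kept (15307), and log2(rescaled FPKM + 1) was tested with limma 3.58.1 (trended eBayes, R 4.3.3) with Benjamini-Hochberg adjustment over all genes tested, and intervals are 95%. A fold on this scale understates the change of low genes. Depth limits precision for genes near 3 reads. Because depth and the share of a few very abundant transcripts set FPKM, a few abundant genes can shift all others, which the rescaling removes only on the assumption that most genes are equal. How strand was counted is not given in the sources used here, and overlapping genes may share reads.

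Named genes were the 10 widest called differences in each direction with a mean of at least 10 FPKM, the 5 smallest differences among genes with at least 100 FPKM in both tissues, and from each list up to 4 genes with the widest difference in each direction, those called against the majority of the list and up to 3 with the smallest difference. Any other listed gene could be named. The members and gene lists were chosen with earlier results of these data known. Members of a list are not replicates. The procedure was also run on simulated counts with few changed genes and the same spread set for every gene. These libraries differ from that setting, so the run does not measure the accuracy of the calls here. Alternatives were the deposited scaling, quantile normalization, a pseudocount of 0.1, an FPKM minimum of 5, no minimum, no trend, limma-voom on recovered reads, all 8 libraries, a replicate block and leaving out each library. Muc17 and Siglecf were not analysed here, and a few listed genes enter the counts but are not reported here by name. Python 3.11.15 with pandas 2.3.3 and matplotlib 3.10.9 was used for tables and figures.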

Additional observations from a re-analysis of the deposited data

How the results depend on the processing

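With 2 libraries a tissue, and unequal abundance of a few transcripts, the scaling limits these results most. On the deposited values, 4991 genes were called higher in lung and 1631 in small intestine, against 2864 and 2708 after rescaling, and 21 proliferative and 5 stromal genes were called higher in small intestine against 43 and 8. With an FPKM minimum of 5, where 9060 genes were tested, 1899 were called higher in lung and 26 proliferative genes higher in small intestine. The other alternatives kept all these counts within 1.5 times. Leaving out each library in turn gave 2590 to 2908 genes higher in lung and 2207 to 2824 higher in small intestine. For barrier genes the range was 53 to 55 in lung and 83 to 94 in small intestine, for immune genes 45 to 51 and 18 to 20, for proliferative genes 9 to 10 and 39 to 45, and for stromal genes 80 to 86 and 6 to 10. When 1 library is left out, the lone library of its tissue is assumed to vary like the others.

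Some medians of lists changed sign, given here with the value of the fit in the report in brackets. The median of the other tight junction genes was 0.0397 on the deposited values (-0.71). That of mast cell and eosinophil genes was 0.5213 on the deposited values and ran from -0.6942 to 0.4291 when a library was left out with 0.0210 without lung replicate 2 (-0.11). That of pattern recognition genes was 0.6890 on the deposited values, 0.2165 after quantile normalization, 0.0424 without lung replicate 2 and 0.0068 without small intestine replicate 2 (-0.03). That of stem cell and Wnt genes was 1.0931 with an FPKM minimum of 5 (-0.78), where fewer genes were tested. That of enteric neurons, glia and interstitial cells was -0.0951 after quantile normalization and -0.2743 without lung replicate 1 (0.19), that of cell cycle inhibitors -0.0383 without small intestine replicate 1 (0.06), and that of skeletal muscle genes 0.4149 on the deposited values and 0.6900 without lung replicate 2 (-0.17). After quantile normalization Gm10075, Gm9800, Ptma and Rps16-ps2, at -0.03 to -0.01 in the report and at 0.75 to 0.77 on the deposited values, were at 1.07, 1.04, 1.34 and 1.05, and the log2 difference of Acta1 ran from -3.0381 without lung replicate 1 to 1.0547 without lung replicate 2 (-1.05 with both). The cause was not tested where none is named. Of 541 named or listed genes tested, 392 were called, 321 kept their call under every alternative and 71 lost it under at least 1.

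The labels give replicates the same numbers in each tissue without saying that a number marks a mouse, and same-numbered libraries did not deviate together (r = -0.12 over 15307 genes). With the replicate number as a block, 2868 and 2724 genes were called, and among the named and listed genes 1 call was lost, that of Il33, and 1 was gained. With the numbers crossed, an alternative chosen after seeing the data, 2894 and 2737 were called.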

Other observations

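Some genes that both organs are known to use were listed at or near 0 in all 4 libraries. The replication nuclease Fen1 was listed at 0, 0, 0 and 0.0365 FPKM in lung replicates 1 and 2 and small intestine replicates 1 and 2, and 84.2% of its exon bases are shared with Gm10143 and Tmem258 in the GENCODE M21 annotation. The integrin Itgam was listed at 0, 0, 0 and 0.0368 FPKM, with 68.7% of its exon bases shared with Gm49368. The smooth muscle gene Tagln was listed at 0.876, 1.42, 0.430 and 0.622 FPKM, with 67.9% shared with Gm48529 and Pcsk7. Of 609 genes checked, 10 share at least 50% of their exon bases with another gene. Of these, Apoa4 (69.8%) stood at 601 and 466 FPKM in small intestine, and Mzb1 (57.2%) and Ctnnd1 (61.2%) at 47.1 and 42.5 and at 10.6 and 12.9 FPKM in lung. Gins2, Pln, Cd247 and Nppa, the other 4, were at 2.65 FPKM or less in every library. Krt4 was listed at 0 in all 4 libraries and shares none. The part of shared exons in these levels was not tested.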
